A study of Mus musculus with 16 samples.

Results

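The nuclear genes for the subunits of respiratory chain complexes I to IV, of cytochrome c and of the ATP synthase (complex V) were examined in CD11b+ cells sorted from MC38-Ova tumours. Members were the rows of the count table whose symbol starts with Nduf, Uqcr, Cox4i, Cox5, Cox6, Cox7, Cox8 or Atp5, together with Sdha, Sdhb, Sdhc, Sdhd, Cyc1 and Cycs. This gave 94 of 24421 genes, with 36 in complex I, 4 in complex II, 9 in complex III, 20 in complex IV, 16 in complex V and 1 for cytochrome c, while 8 code for assembly factors whose symbols share the prefixes (the Ndufaf genes and Atp5sl). Ndufa4 and Ndufa4l2 were placed with complex IV, where their products are now assigned. All groups came from Kaede transgenic mice on the C57BL/6 background, labelled as controls and as 1 batch, that carried a tumour of MC38-Ova, a colon carcinoma line expressing ovalbumin. The tumour was exposed to violet light, which turns the Kaede protein of the cells then present from green to red. Kaede-red cells were therefore those retained since photoconversion and Kaede-green cells those that came in afterwards, and both were sorted 24h or 72h later by gating on viable cells with CD45, CD11b and Kaede but neither TER119 nor NK1.1, described in the labels as macrophages. Each of the 4 groups, Kaede-green 24h, Kaede-red 24h, Kaede-green 72h and Kaede-red 72h, had 4 libraries. Per the study's supplement the points of the bulk RNA-seq stand for tumours of separate mice, but the labels do not say which Kaede-green and Kaede-red libraries shared a tumour.

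The respiratory chain passes electrons from NADH (complex I) and succinate (complex II) through complex III and cytochrome c to oxygen at complex IV, and the proton gradient that builds up across the inner mitochondrial membrane drives the ATP synthase. Complexes I, III, IV and V hold subunits from both the nuclear and the mitochondrial genome, whereas complex II is wholly nuclear and also serves as an enzyme of the citric acid cycle. Macrophages are known to shift between respiration and glycolysis with their state of activation, and a few subunits have paralogs that replace each other in muscle or at low oxygen.

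Total counts per library lay between 3216858 and 15423085. The ribosomal RNA gene Rn45s took 79.0 to 93.4% of them in Kaede-green and 55.8 to 84.9% in Kaede-red libraries, which left 468092 to 912689 and 758192 to 5472477 counts for all other genes. Levels are given as CPM, counts scaled to a common library total and by TMM factors, which most genes together determine and which were 0.318 to 1.06 in Kaede-green and 1.19 to 3.85 in Kaede-red libraries. On this scale the median tested gene was 0.06 (log2) higher in Kaede-red cells when both times were pooled. With library totals only, the median gene was 2.20 higher in Kaede-red cells and the median member 1.67 higher, which is 0.53 below the median gene. Directions given here are therefore relative to the bulk of the genes, and over both times each member named as lower was higher on the scale of library totals. All 8 monocyte and macrophage markers (among them Csf1r, Adgre1 and Cd68) were detected in each group, with a sum of 631 to 2147 CPM per library, and 5 of them were called higher and 1 lower in Kaede-red cells. Of 6 fibroblast markers, all detected in each group, 4 were tested and 3 were called lower in Kaede-red cells, and their sum was 41.8 to 55.2 CPM in Kaede-green 24h, 19.8 to 38.6 in Kaede-red 24h, 46.1 to 51.5 in Kaede-green 72h and 12.4 to 19.5 in Kaede-red 72h libraries. The sum of 3 endothelial markers was 9.77 to 19.0 CPM in Kaede-green and 17.8 to 36.7 in Kaede-red libraries, with 2 called higher and 1 lower. The sum of 9 neutrophil markers was 8.60 to 12.3 CPM in Kaede-green, 9.07 to 14.5 in Kaede-red 24h and 17.8 to 23.3 in Kaede-red 72h libraries, with 1 of 2 tested called higher and the granule gene Ngp at 0 in all 16 libraries. T and NK, B and epithelial markers summed to at most 5.73, 2.45 and 3.68 CPM, dendritic cell markers to at most 5.10 and erythroid markers to at most 11.3, and none of 5 markers of dividing cells was called (20.1 to 56.6 CPM). The part of these other cells in the results on the respiratory chain was not tested, and in bulk samples fewer cells of a type cannot be told apart from less RNA per cell.

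Promoters are shown for the members with the smallest p-values in the comparison of the colours, a choice made on those p-values. Whether a shared factor controls these genes was not tested. They are RefSeq sequences of build GRCm38.p6 from 250 bases before to 50 bases after the start of transcription, and 77 of the 94 members had an entry. Cox4i1 had none. Capitals mark a match to 1 of 3 motifs of factors known for the control of respiratory genes, searched on both strands and none contained in another, namely the palindromic NRF1 motif of 10 bases, ccggaagt (ETS factors such as GABPA) and the YY1 motif of 10 bases. The windows, written 5′ to 3′ on the strand of the gene, were chr4:116075021-116075320 (minus strand) for Uqcrh, chr5:108434350-108434649 (minus strand) for Atp5k and chrX:106015450-106015749 (plus strand) for Cox7b. The genes themselves lie at 116066965 to 116075071 of chromosome 4, 108433244 to 108434448 of chromosome 5 and 106015700 to 106022450 of chromosome X in mm10, the build of the count table, and all 3 are protein-coding.
Uqcrh: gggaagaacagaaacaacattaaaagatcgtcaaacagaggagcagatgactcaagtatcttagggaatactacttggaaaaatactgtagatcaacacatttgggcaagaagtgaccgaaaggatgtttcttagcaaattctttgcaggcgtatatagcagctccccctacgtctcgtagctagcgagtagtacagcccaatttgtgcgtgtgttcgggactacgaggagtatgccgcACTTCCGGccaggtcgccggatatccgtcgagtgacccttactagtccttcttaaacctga
Atp5k: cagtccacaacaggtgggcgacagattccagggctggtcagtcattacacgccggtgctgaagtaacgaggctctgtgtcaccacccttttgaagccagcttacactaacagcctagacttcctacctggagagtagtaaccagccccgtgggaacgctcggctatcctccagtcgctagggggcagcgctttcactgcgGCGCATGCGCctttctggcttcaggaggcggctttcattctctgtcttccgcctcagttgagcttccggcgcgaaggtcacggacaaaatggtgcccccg
Cox7b: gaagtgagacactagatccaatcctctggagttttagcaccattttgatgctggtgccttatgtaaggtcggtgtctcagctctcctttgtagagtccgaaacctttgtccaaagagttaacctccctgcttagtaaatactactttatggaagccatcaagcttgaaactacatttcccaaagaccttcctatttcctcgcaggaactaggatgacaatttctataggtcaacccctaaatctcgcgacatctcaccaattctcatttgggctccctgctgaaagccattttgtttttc
Uqcrh held the reverse complement of the ETS motif at bases 240 to 247 of the window, next to the start site, and Atp5k held an NRF1 motif at bases 201 to 210. None of the 3 motifs was found in the window of Cox7b. Over all members with an entry, the NRF1 motif was in 18 of 77 promoters (23.4%, against 4.78% of the promoters of 27025 genes), the ETS motif in 5 (6.49%, against 4%) and the YY1 motif in 5 (6.49%, against 0.899%). The NRF1 motif was in 7 of the 34 promoters of members called lower in Kaede-red cells and in 11 of the 38 of the other tested members. A match is a description of the sequence and not evidence of binding.

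Kaede-red cells had less RNA of many, but not all, of these genes than Kaede-green cells. Over both times, 38 of the 85 members that passed the filter on low counts were called lower and 2 higher (adjusted p under 0.05 with edgeR's quasi-likelihood test, adjusted over all 9642 genes), where 10.3% of all tested genes were called lower and 10% higher. The median log2 fold change of the members was -0.48, against 0.06 for all tested genes. In 9 members each of the 8 Kaede-red libraries lay below each of the 8 Kaede-green libraries, as in 1.74% of all tested genes, and in none were all above (1.19%). Called lower were 15 of 36 members in complex I, 0 of 4 in complex II, 3 of 9 in complex III, 9 of 12 tested in complex IV, 10 of 15 tested in complex V, cytochrome c, and 0 of 8 assembly factors. All these calls are on the TMM scale, and with library totals only no member was called lower and 80 were called higher, where 96.6% of all genes were. The order of the 5 complexes by median was the same with library totals, from complex IV (-0.98 relative to the median gene) to complex II (-0.03). A change of scale multiplies all counts of a library by 1 factor, so this order could hardly change and is not a separate check. Adding the Rn45s share as a covariate, which differed between the colours, left 3 members called lower (Ndufa6, Uqcrh and Atp5k) against 1.09% of all genes, and a median of -0.33.

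**Figure D1:**
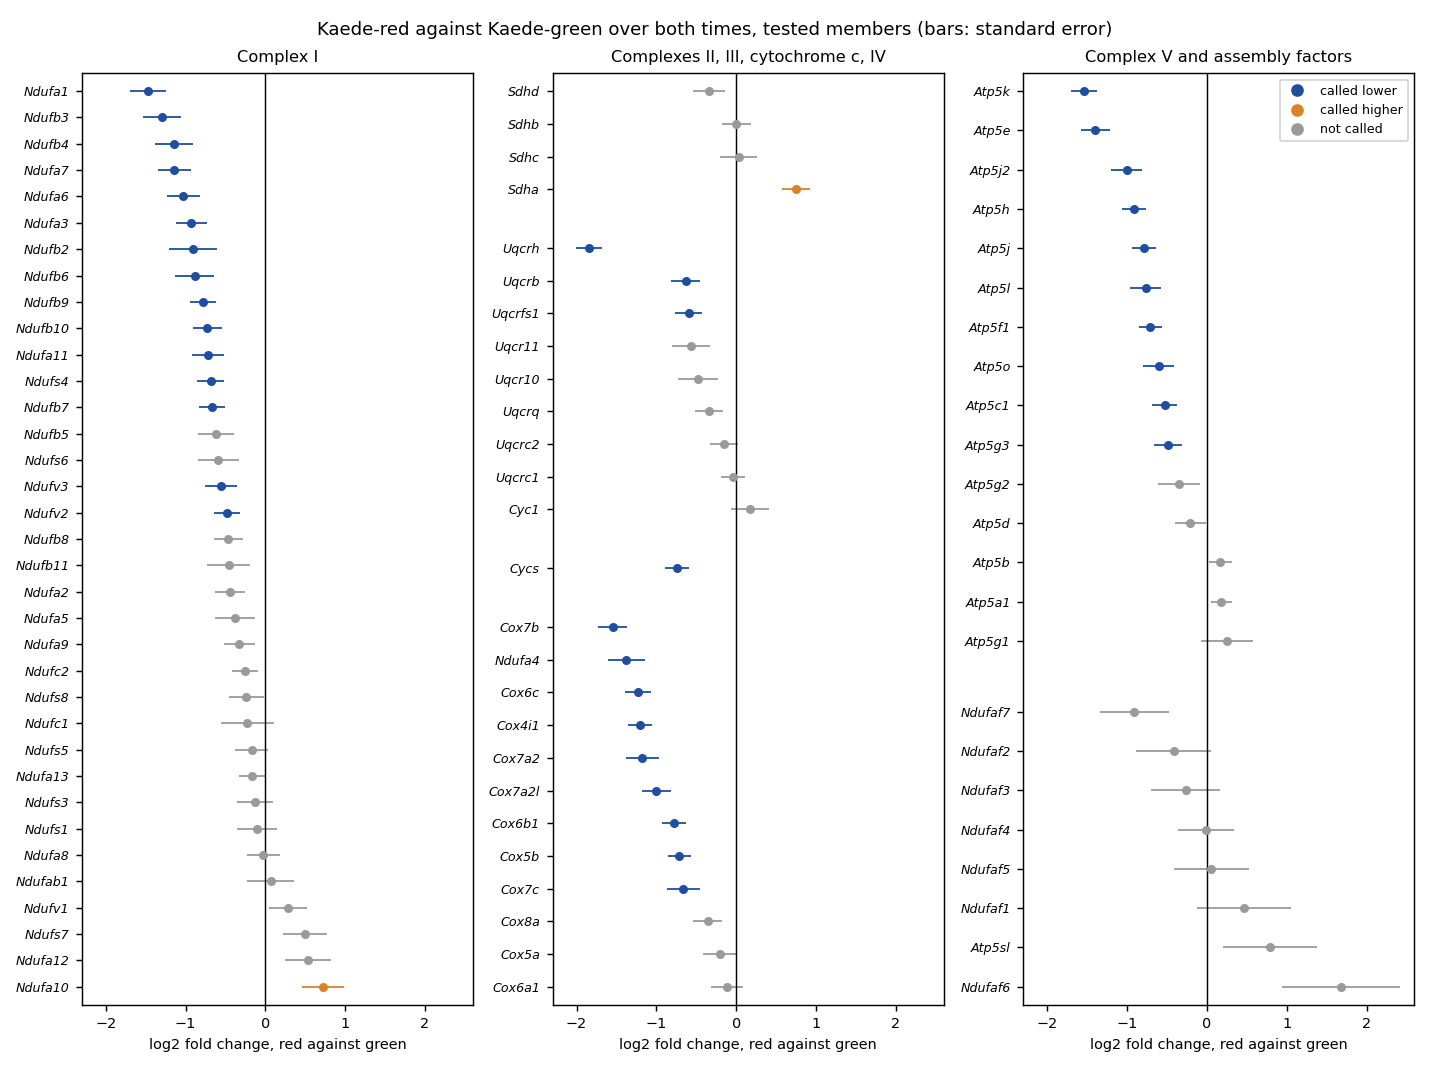
Log2 fold change of the tested members named on the axis over both times (Kaede-red over Kaede-green, x axis, TMM scale, negative is lower in Kaede-red), by complex, with bars for the standard error and colours for the call. Values run from -1.85 (Uqcrh) to 1.68 (Ndufaf6, not called), and 38 members are called lower and 2 (Sdha and Ndufa10) higher. On the scale of library totals the calls turn to 80 higher and 0 lower, where 96.6% of all genes are called higher.

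The summed CPM of all members was 1337 ± 213 (mean ± SD, n = 4 libraries, here and for all means) in Kaede-green 24h, 955 ± 56.4 in Kaede-red 24h, 1230 ± 180 in Kaede-green 72h and 732 ± 115 in Kaede-red 72h cells. Expressed instead as a share of all counts outside Rn45s, the members held 0.557%, 0.743%, 0.584% and 0.534% in the same order, so that on this scale Kaede-red was above Kaede-green at 24h. Sums are led by abundant members and do not describe each gene.

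**Figure D2:**
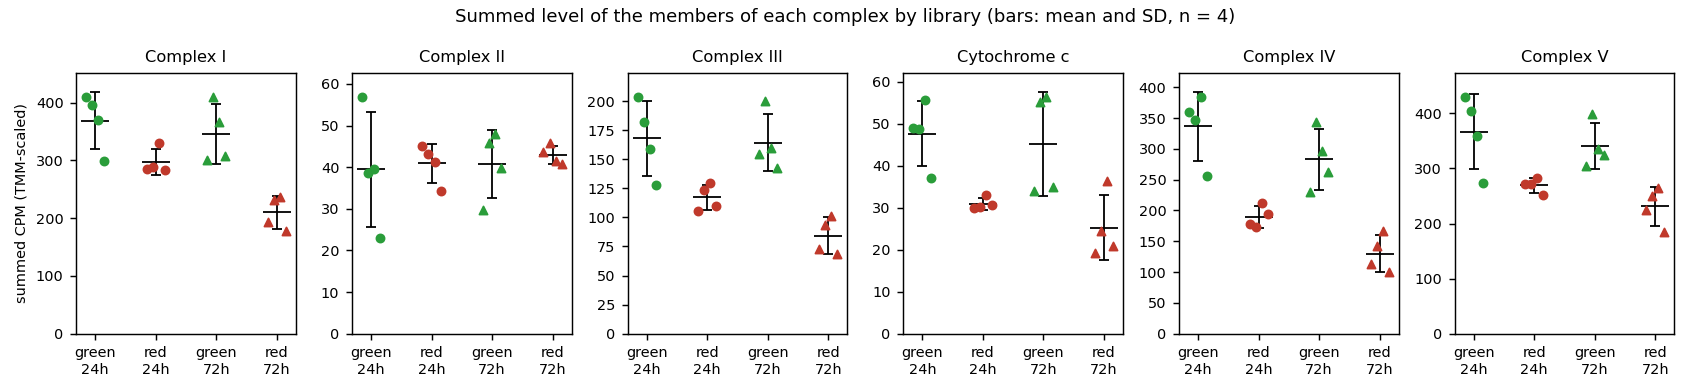
Summed CPM of the members of each complex in every library (y axis, TMM scale), with bars for the mean and SD of 4 libraries. Complex IV sits lower in every Kaede-red than in every Kaede-green library of the same time (at most 212 against at least 229 CPM), while complex II lies between 22.9 and 56.9 CPM in all 4 groups, and with library totals only the red-green differences of all complexes are positive at both times.

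Complex I receives electrons from NADH through core subunits that carry flavin and iron-sulfur clusters, surrounded by many small accessory subunits. The summed level of its 36 members was 369 ± 48.9 CPM in Kaede-green 24h, 297 ± 21.8 in Kaede-red 24h, 346 ± 51.6 in Kaede-green 72h and 210 ± 28.5 in Kaede-red 72h cells. The members had a median log2 fold change of -0.46 over both times (1.70 with library totals only), with 15 called lower and 1 higher. Of the 7 nuclear core subunits 1 was called lower, and of the 29 accessory subunits 14 were, with medians of -0.13 and -0.59. The core call was Ndufv2, an iron-sulfur subunit, at -0.48 (SE 0.165, adjusted p = 0.0365), and it held in 8 of 16 fits that left out a library. Among the rest, the values were -0.11 (Ndufs1), -0.13 (Ndufs3), 0.49 (Ndufs7), -0.24 (Ndufs8) and 0.28 (Ndufv1), none of these called, with standard errors of 0.216 to 0.275.

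The accessory subunits with the smallest p-values were Ndufa1, Ndufb3 and Ndufa7, all of them small proteins. Ndufa1 had 7.36, 7.39, 13.4 and 14.3 CPM in Kaede-green 24h, 2.72, 3.04, 4.04 and 4.99 in Kaede-red 24h, 5.46, 5.85, 7.78 and 8.24 in Kaede-green 72h, and 1.68, 2.43, 2.82 and 3.33 in Kaede-red 72h libraries (in ascending order, here and below). No Kaede-red library reached any Kaede-green library, and the log2 fold change was -1.47 (SE 0.223, adjusted p = 8.28e-06). Ndufb3 and Ndufa7 fell by 1.29 and fell by 1.14 (adjusted p = 0.000115 and 0.00012). Ndufa10, an accessory subunit, was the single complex I member called higher, at 0.72 (SE 0.263, adjusted p = 0.0499), with 1.64 to 5.32 CPM in Kaede-green 24h, 3.16 to 5.36 in Kaede-red 24h, 1.95 to 5.19 in Kaede-green 72h and 5.29 to 5.73 in Kaede-red 72h cells. This call stands at the threshold and held in 4 of the 16 fits without a library, where adjusted p reached 0.122 without Kaede-green 72h replicate 3.

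Complex II oxidises succinate, with Sdha as its flavoprotein, Sdhb as its iron-sulfur subunit and Sdhc and Sdhd as its membrane anchors. Sdha (chromosome 13, 74322254 to 74350280) rose in Kaede-red cells, by 0.74 on the log2 scale over both times (SE 0.175, adjusted p = 0.00219, with called values in all 16 fits without a library). It had 4.46, 7.77, 8.92 and 9.83 CPM in Kaede-green 24h, 7.98, 10.2, 11.2 and 12.3 in Kaede-red 24h, 5.80, 5.84, 6.58 and 8.84 in Kaede-green 72h, and 12.5, 13.9, 15.5 and 15.9 in Kaede-red 72h libraries. At 72h all Kaede-red libraries lay above all Kaede-green libraries (log2 fold change 1.09, SE 0.243, adjusted p = 0.00165), whereas at 24h the colours overlapped (0.40, adjusted p = 0.392), and the change between the times was 0.69 (adjusted p = 0.348). Sdhb differed by 0.00 (SE 0.186), Sdhc by 0.03 (SE 0.231) and Sdhd by -0.34 (SE 0.198), none called. No member of complex II was called lower by edgeR or by DESeq2, and at an unadjusted p under 0.05 there was none either. The call of Sdha was lost with the Rn45s share as a covariate.

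Complex III passes electrons from ubiquinol to cytochrome c through cytochrome b, cytochrome c1 (Cyc1) and the Rieske iron-sulfur protein (Uqcrfs1), held by the core proteins Uqcrc1 and Uqcrc2 and by small subunits. Its 9 members had a median of -0.48 (1.62 with library totals only), and 3 were called lower. Uqcrh, the hinge protein that binds cytochrome c1, had the smallest p-value of all members. It had 56.4, 61.4, 70.1 and 81.4 CPM in Kaede-green 24h, 21.1, 21.6, 21.9 and 28.5 in Kaede-red 24h, 47.6, 48.2, 64.0 and 92.5 in Kaede-green 72h, and 9.48, 12.6, 15.8 and 19.4 in Kaede-red 72h libraries. The highest Kaede-red library thus stayed below the lowest Kaede-green one, with a log2 fold change of -1.85 over both times (SE 0.164, adjusted p = 1.52e-09), -1.53 (adjusted p = 4.02e-05) for the 24h libraries and -2.16 (adjusted p = 2.09e-07) for those of 72h. At 72h it was lower with library totals too, at -0.15, and the call over both times held in all 16 fits without a library.

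The Rieske protein gene Uqcrfs1 fell by 0.59 (SE 0.168, adjusted p = 0.0103). It was called at 24h (-0.91, adjusted p = 0.0151), with 6.35, 7.37, 9.49 and 10.1 CPM in Kaede-red against 14.5, 15.1, 15.3 and 18.03 in Kaede-green libraries, and not at 72h (-0.28, adjusted p = 0.466). This 24h call did not hold in 2 of the 16 leave-one-out fits. Uqcrb, a small subunit with near-identical copies elsewhere in the genome, fell by 0.63 (adjusted p = 0.0116). The core proteins Uqcrc1 (-0.04, SE 0.149) and Uqcrc2 (-0.15, SE 0.173) and Cyc1 (0.17, SE 0.241) were not called, and Uqcrc1 had between 12.5 and 20.1 CPM in all 16 libraries. Cytochrome c itself (Cycs), the mobile carrier between complexes III and IV, fell by 0.74 (SE 0.152, adjusted p = 0.000512), with 47.7 ± 7.72 CPM in Kaede-green against 31.0 ± 1.39 in Kaede-red cells at 24h, and 45.1 ± 12.4 against 25.3 ± 7.75 at 72h, where the highest Kaede-red library (36.4) lay within the Kaede-green range. Cycs also has near-identical copies, between which the counting could have divided reads.

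Complex IV, which reduces oxygen, had 9 of its 12 tested members called lower (0 with the Rn45s share as a covariate, where complexes I, III and V kept 1 each), with a median of -0.89 (1.22 with library totals only) and no member called higher by edgeR or DESeq2 (0 at an unadjusted p under 0.05). Its summed level was 337 ± 56.3 CPM in Kaede-green against 189 ± 17.4 in Kaede-red cells at 24h, and 283 ± 49.1 against 130 ± 29.9 at 72h. In 5 of them (Cox7b, Cox6c, Cox4i1, Cox7a2l and Cox5b) no Kaede-red library reached a Kaede-green one. Cox4i1 (chromosome 8, 120668222 to 120674207) codes for a regulatory subunit, and its exons overlap those of the antisense gene Emc8. It had 45.8, 74.6, 89.2 and 90.7 CPM in Kaede-green 24h, 35.0, 36.6, 37.2 and 39.9 in Kaede-red 24h, 59.6, 61.3, 65.3 and 74.8 in Kaede-green 72h, and 16.4, 23.2, 29.3 and 31.0 in Kaede-red 72h libraries. Its log2 fold change was -1.21 (SE 0.151, adjusted p = 4.1e-07), and its level stood apart in Kaede-red libraries at both times. Cox7b, a small subunit encoded on the X chromosome, had 31.1, 42.4, 46.7 and 65.0 CPM in Kaede-green 24h, 18.1, 20.3, 20.8 and 26.9 in Kaede-red 24h, 32.5, 32.5, 49.1 and 61.4 in Kaede-green 72h, and 7.55, 7.81, 14.3 and 15.9 in Kaede-red 72h libraries. It fell by 1.55 (SE 0.183, adjusted p = 1.7e-07), and Cox6c, another small membrane subunit, fell by 1.23 (SE 0.161, adjusted p = 8.56e-07).

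Ndufa4, first described as a complex I subunit, fell by 1.37 (SE 0.228, adjusted p = 3.35e-05), and Cox5b, the zinc-binding subunit, fell by 0.71 (SE 0.145, adjusted p = 0.000461). Counting Ndufa4 under complex I would give 16 of 37 tested members called lower there. The genes not called were Cox5a (-0.21, SE 0.212), Cox6a1 (-0.11, SE 0.199) and Cox8a (-0.36, SE 0.176). Among paralogs that are known from muscle, low oxygen or germ cells, 8 complex IV genes stayed below the filter. Cox4i2 had at most 5 counts in a library, Ndufa4l2 at most 3, Cox6a2 at most 5, Cox7a1 at most 15 and Cox8b at most 1, while the common forms Cox4i1, Ndufa4, Cox6a1, Cox7a2 and Cox8a were tested, and no difference of the rare forms was detectable at this depth. Cox7a2 fell by 1.17 (adjusted p = 8.38e-05) and its relative Cox7a2l, which takes part in joining complexes III and IV, fell by 1.00 (adjusted p = 0.000106).

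**Figure D3:**
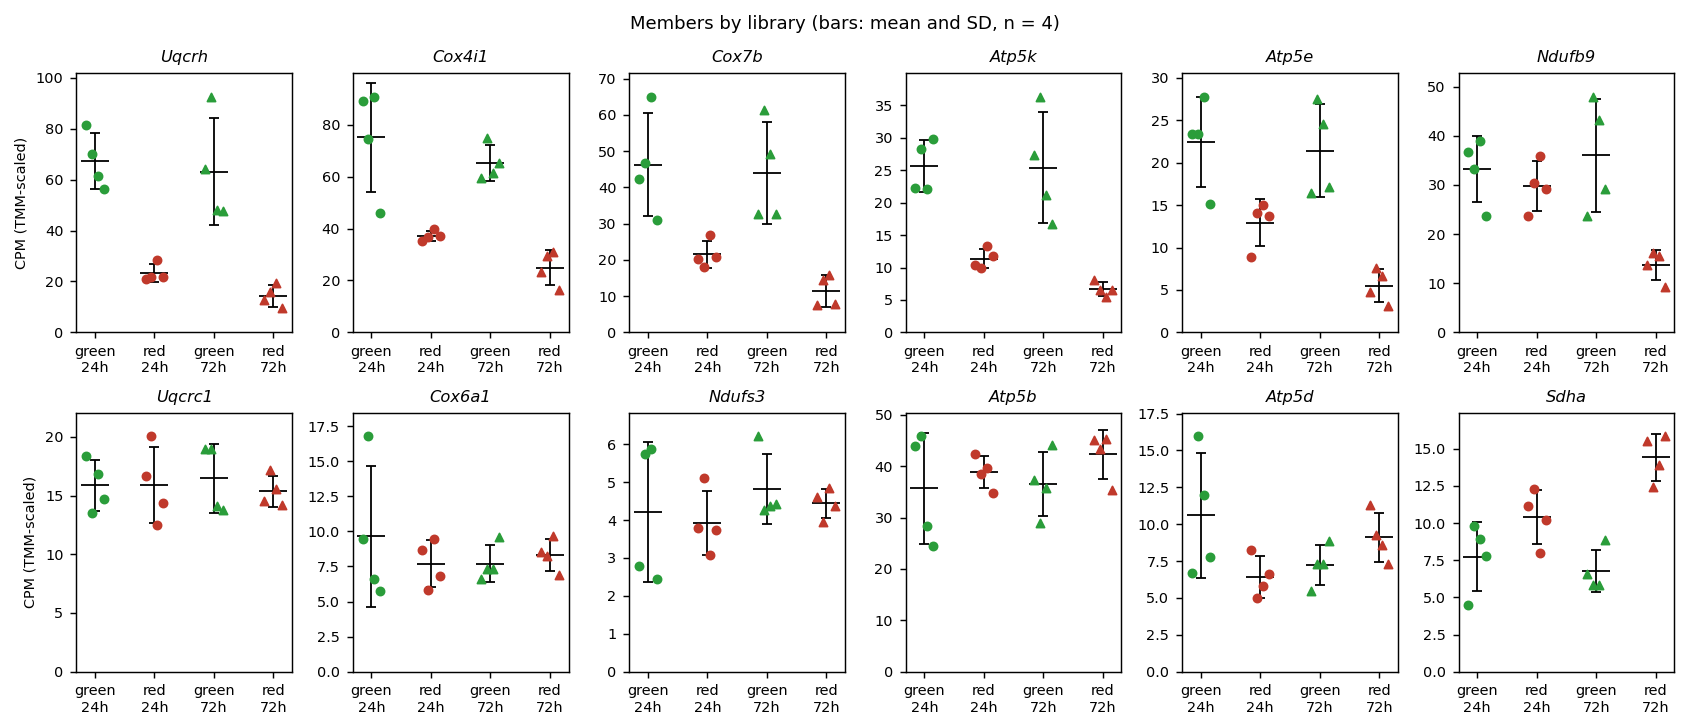
CPM of 12 members in every library (y axis, TMM scale), with bars for the mean and SD of 4 libraries. In the top row Kaede-red libraries lie low, down to 3.16 CPM for Atp5e at 72h (Ndufb9 overlaps at 24h), whereas in the bottom row the colours overlap except for Sdha at 72h, where Kaede-red is higher, and with library totals only the differences over both times are positive.

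The ATP synthase consists of the catalytic F1 part, a ring of c subunits in the membrane, a peripheral stalk and small membrane subunits. Its 15 tested members had a median of -0.60 (1.5 with library totals only), with 10 called lower and none higher by edgeR or by DESeq2 (and none higher at an unadjusted p under 0.05). The alpha and beta subunits, which hold the catalytic sites, did not pass the test. Atp5a1 had a log2 fold change of 0.18 (SE 0.130, adjusted p = 0.355) and Atp5b of 0.17 (SE 0.143, adjusted p = 0.442). Atp5b had 24.5, 28.3, 44.0 and 45.9 CPM in Kaede-green 24h, 34.9, 38.4, 39.7 and 42.3 in Kaede-red 24h, 29.0, 35.8, 37.3 and 44.2 in Kaede-green 72h, and 35.4, 43.4, 45.1 and 45.4 in Kaede-red 72h libraries. These ranges overlap at both times.

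Of the central stalk, Atp5e (epsilon) fell by 1.40 (SE 0.186, adjusted p = 1.11e-06) and Atp5c1 (gamma) fell by 0.53 (SE 0.158, adjusted p = 0.0162), while Atp5d (delta) had -0.21 (SE 0.191, not called). Atp5e had 15.1, 23.4, 23.4 and 27.8 CPM in Kaede-green 24h, 8.87, 13.7, 14.1 and 15.1 in Kaede-red 24h, 16.4, 17.2, 24.6 and 27.5 in Kaede-green 72h, and 3.16, 4.74, 6.65 and 7.54 in Kaede-red 72h libraries. The 72h values of Kaede-red lie below all others. All 4 genes of the peripheral stalk (Atp5f1, Atp5h, Atp5j and Atp5o) were called lower, between -0.91 and -0.60, as were the 3 small membrane subunits e, f and g (Atp5k, Atp5j2 and Atp5l). Atp5k had 22.2, 22.3, 28.3 and 29.9 CPM in Kaede-green 24h, 9.97, 10.4, 11.8 and 13.2 in Kaede-red 24h, 16.6, 21.2, 27.4 and 36.3 in Kaede-green 72h, and 5.44, 6.51, 6.55 and 8.10 in Kaede-red 72h libraries. Its log2 fold change was -1.54 (SE 0.161, adjusted p = 1.71e-08), without overlap of the colours, and 1 pseudogene copy of it is known from the annotation.

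The c ring is built from identical proteins encoded by Atp5g1, Atp5g2 and Atp5g3, which differ in their import sequences. Atp5g3 had 12.8 CPM in Kaede-green 24h, 9.06 in Kaede-red 24h, 9.80 in Kaede-green 72h and 7.30 in Kaede-red 72h cells on average and was called lower (-0.49, adjusted p = 0.0469), a call kept by 5 of 16 leave-one-out fits, where adjusted p reached 0.108 without Kaede-red 24h replicate 2. Atp5g1 (0.25, SE 0.323) and Atp5g2 (-0.35, SE 0.260) were not called, and both have near-identical copies in the genome.

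Near-identical copies at other loci, to which reads of short spliced transcripts can also align, were found for 20 members. Of these 12 (60%) were called lower and 0 higher, with a median of -0.62. Of the 65 tested members without such a copy, 26 (40%) were called lower and 2 (3.08%) higher, with a median of -0.42. The shares of all tested genes were 10.3% and 10%.

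The 8 assembly factors that share the prefixes had low levels, with a sum of 6.55 to 13.1 CPM per library. Over both times edgeR and DESeq2 called none. At an unadjusted p under 0.05 there was 1 lower and 1 higher, where 3133 of all 9642 genes passed in either direction. The smallest p-values were those of Ndufaf6 (1.68, SE 0.737), Ndufaf7 (-0.91, SE 0.433) and Atp5sl (0.79, SE 0.586), with adjusted p from 0.107 to 0.372. At 72h Ndufaf2, a complex I assembly factor, was called lower (-1.78, adjusted p = 0.0415), a call that held in 6 of the 16 fits without a library and failed at up to 0.159 without Kaede-green 72h replicate 3.

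Per kilobase of transcript, the most abundant members were Uqcrh, Cox4i1, Cox6c and Uqcrq, with 76.8, 67.9, 57.7 and 53.3 CPM per kb on average over the 4 groups, followed by Atp5h (48.6) and Atp5k (46.5). By group, Uqcrh had 123, 42.6, 115 and 26.2 CPM per kb in Kaede-green 24h, Kaede-red 24h, Kaede-green 72h and Kaede-red 72h, while Uqcrq, another small complex III subunit, had 56.7, 61.5, 60.3 and 34.7. Uqcrh was thus first in both Kaede-green groups and Uqcrq in both Kaede-red groups, although at 72h Cox4i1 (33.5) stood close to Uqcrq.

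The share of members called lower was greater among short than among long transcripts. The members' median transcript length was 861 bp, against 2843 bp for all tested genes, and across the 85 members the log2 fold change over both times rose with length (Spearman's rho 0.514 and Pearson's r 0.495 with log2 length, against 0.13 and 0.191 across all genes with a length). Genes share the same libraries and are not independent replicates, so this is a description. Among the 30 shortest members (315 to 659 bp) 19 were called lower, among the 27 of 678 to 1142 bp 12, and among the 28 of 1166 to 3632 bp 7, with medians of -0.74, -0.47 and -0.13. Cycs (3123 bp) was a long transcript that fell, and Cox6a1 (571 bp) a short one that was not called. With offsets that remove each library's dependence on transcript length and GC content, 32 of the 38 members were still called lower, and Sdha was still called higher, against 14% and 5.44% of all genes. The median was then -0.35 (all genes -0.11), with -0.49, -0.28 and -0.32 in the 3 length classes.

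**Figure D4:**
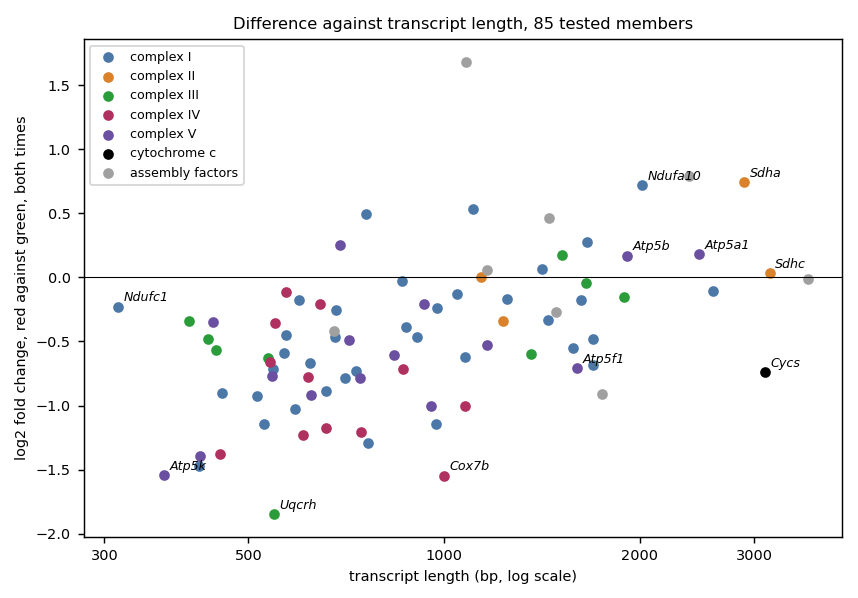
Log2 fold change over both times (Kaede-red over Kaede-green, y axis, TMM scale) against the length of the representative transcript (x axis, log scale) for the 85 tested members, coloured by complex. Short transcripts lie lower, from -1.85 for Uqcrh (547 bp) to 0.74 for Sdha (2900 bp), and with library totals only the values are 0.29 for Uqcrh and positive for the median member (1.67).

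The difference was tested at each time separately. At 24h 11 members were called lower and 0 higher (2 higher at an unadjusted p under 0.05 and 0 with DESeq2), against 4.28% and 3.22% of all tested genes, with a median of -0.32. At 72h 37 were called lower and 1 (Sdha) higher, against 8.76% and 8.06%, with a median of -0.68. With library totals only these medians were 1.93 and 1.29. The greater count at 72h was not seen with the offsets for transcript length and GC content, where 21 members were called lower at 24h (8.98% of all genes) and 19 at 72h (8.1%), with medians of -0.41 and -0.35. With the Rn45s share as a covariate 1 was called lower at 24h (1.22% of all genes) and 2 at 72h (0.778%). Of the 85 members, 9 were called lower at both times, 28 at 72h and not at 24h, and 2 at 24h and not at 72h. Of all 9642 genes, 242, 603 and 167 were in the same order. The 2 members called at 24h only were Uqcrfs1 and the complex I accessory subunit Ndufa9. Ndufa9 had -0.89 at 24h (adjusted p = 0.0441) and 0.23 at 72h, and its 24h call was kept by 5 of 16 leave-one-out fits, where adjusted p reached 0.162 without Kaede-green 24h replicate 3. In 19 members at 24h and 30 at 72h all Kaede-red libraries lay below all Kaede-green libraries of that time, as in 5.43% and 9.52% of all tested genes, while in 1 member at 24h and 2 at 72h all lay above, as in 7.09% and 13% of all genes. The 24h count was 19 without Kaede-green 24h replicate 4 (5.17% of all genes), and 1 member was called higher without Kaede-green 24h replicate 1 (2.36% of all genes).

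A call at one time and not at the other does not show a difference between the times, and the interaction of colour and time was therefore tested itself. No member passed that test with edgeR, against 0.332% of all genes lower and 0.425% higher. At an unadjusted p under 0.05, 13 members were lower and 3 higher, and 1476 of all 9642 genes passed in either direction. DESeq2 called 3 lower, against 1.36% of all genes lower and 1.65% higher with that tool. Ndufb9, a complex I accessory subunit, had an interaction of -1.25 (SE 0.324, adjusted p = 0.0607), which passed with DESeq2, with genes limited to those of at least 10 counts throughout, without a filter on low counts and with a replicate block, and in 3 of the 16 fits without a library. Uqcrh had -0.62 (adjusted p = 0.352). Without Kaede-green 72h replicate 1 the count called lower was 2 (0.256% of all genes). It was 1 without Kaede-red 24h replicate 1 (0.608%) or Kaede-green 72h replicate 4 (0.386%).

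**Figure D5:**
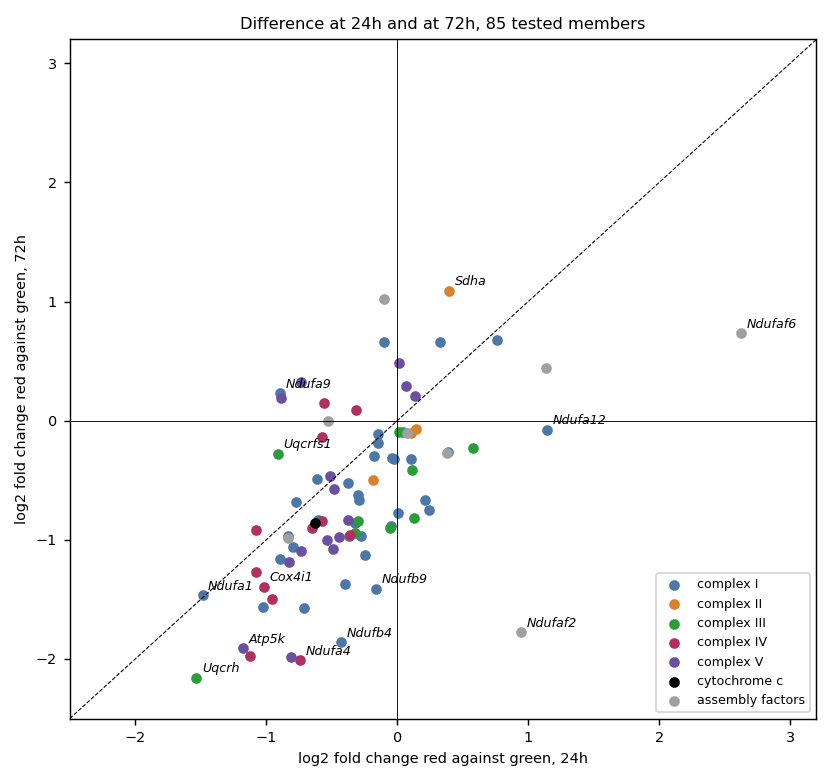
Log2 fold change of Kaede-red against Kaede-green at 72h (y axis) against that at 24h (x axis) for the 85 tested members on the TMM scale, coloured by complex, with a dashed line of equality. In 54 members both values are negative and in 8 both are positive, against 2781 and 3303 of all 9642 genes. Uqcrh is the lowest at both times with -1.53 and -2.16, while with library totals only the medians turn to 1.93 and 1.29.

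Among Kaede-green cells, which at either time had entered after photoconversion, no member was called between 72h and 24h by edgeR or DESeq2. Of all 9642 genes edgeR called 0% in either direction and DESeq2 0.105% lower and 0.0213% higher. Without a filter on low counts edgeR called 0.038% and 0.138% of 21040 genes. At an unadjusted p under 0.05 there were 5 members, all lower, and 835 of all 9642 genes in either direction. In no member were the 72h libraries all below or all above the 24h ones, as was the case for 1.08% and 1.92% of all genes. The median was -0.09 (0.56 with library totals only). Among Kaede-red cells, 72h was lower than 24h in 15 members and higher in none (1 higher at an unadjusted p under 0.05 and 0 with DESeq2), against 3.76% and 4.92% of all genes, with a median of -0.44 (-0.06 with library totals only). In 22 members all 72h libraries lay below all 24h libraries, as in 8.76% of all tested genes, and in 1 above, as in 11.8%. The 5 smallest p-values were those of Ndufa4 (-1.63, SE 0.311, adjusted p = 0.00187), Ndufb9 (-1.13, adjusted p = 0.00259), Atp5e (-1.24, adjusted p = 0.00299), the core subunit Ndufv2 (-0.96, adjusted p = 0.00715) and Ndufb4 (-1.28, adjusted p = 0.00984).

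Ndufb9 (chromosome 15, 58933756 to 58939488), whose exons overlap Gm49356 on the same strand, had 23.6, 29.3, 30.4 and 35.9 CPM in Kaede-red 24h and 9.29, 13.7, 15.6 and 16.1 in Kaede-red 72h libraries, without overlap, beside 23.7, 33.2, 36.8 and 39.0 in Kaede-green 24h and 23.8, 29.1, 43.3 and 47.9 in Kaede-green 72h libraries. Ndufa4 had 3.86, 6.57, 7.82 and 12.2 CPM in Kaede-red 24h and 1.85, 2.04, 2.77 and 3.33 in Kaede-red 72h libraries, also without overlap. The count of 15 depended on single libraries, being 4 without replicate 1 and 6 without replicate 4 of Kaede-red 72h, 5 without replicate 3 and 8 without replicate 4 of Kaede-red 24h, and 26 when Kaede-green 24h replicate 4 was left out. The share of all genes called lower moved with it, being 1.14%, 1.56%, 1.1%, 1.59% and 5.45% in the same order. With offsets for transcript length and GC content 2 members remained called lower between the times in Kaede-red cells (1.14% of all genes), and the median was -0.11. Ndufb9 and Atp5e kept their calls there, while Ndufa4, Ndufv2 and Ndufb4 lost theirs. With the Rn45s share as a covariate, Ndufb9 alone of these genes stayed called.

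Other mitochondrial genes were taken from lists compiled for comparison. Of 38 tested assembly factors outside the naming rule, 3 were called lower over both times and 4 higher, 7.89% and 10.5%, which is near the 10.3% and 10% of all genes. Lower were Pet100 (-1.22, adjusted p = 4.89e-07) and Cox17 (-0.90, adjusted p = 0.000382), which serve the building of complex IV, and Uqcc2 (-1.0, adjusted p = 0.000507), which serves that of complex III. Pet100 had 27.2 ± 7.20 CPM in Kaede-green 24h, 16.9 ± 3.37 in Kaede-red 24h, 24.3 ± 3.94 in Kaede-green 72h and 7.31 ± 0.948 in Kaede-red 72h cells. Nubpl, a complex I assembly factor and called higher, had 0 counts in all 8 Kaede-green and 0 to 26 in Kaede-red libraries, too few for a fold change. The others called higher were Sdhaf2 (0.87, adjusted p = 0.0152), which serves complex II, and Cox15 (0.84, adjusted p = 0.0263) and Sco2 (2.44, adjusted p = 0.0129), which serve complex IV, Sco2 resting on 0 to 2 counts per Kaede-green library.

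Among 9 genes for an ATP synthase inhibitor, carriers, channels and an uncoupling protein, Slc25a5 (an ADP/ATP carrier, -0.67, adjusted p = 0.000662), Usmg5 (a small ATP synthase-associated protein, -1.0, adjusted p = 0.000675) and Atpif1 (the ATP synthase inhibitor, -0.66, adjusted p = 0.0035) fell in Kaede-red cells, and Ucp2, an inner membrane carrier of the uncoupling protein family, rose (0.73, adjusted p = 0.00107). Its level was 46.5 ± 12.1 CPM in Kaede-green 24h, 52.2 ± 12.4 in Kaede-red 24h, 40.6 ± 14.9 in Kaede-green 72h and 100.3 ± 8.80 in Kaede-red 72h cells. The 3 lower and 1 higher of these 9 genes were 33.3% and 11.1%, where 10.3% and 10% of all genes were called. Of 16 genes of the citric acid cycle and the pyruvate dehydrogenase complex 1 was called higher over both times (6.25%, below the share of all genes) and 0 lower. It was the pyruvate dehydrogenase subunit Pdha1 (0.88, adjusted p = 0.00418). At 72h 3 of the 16 were called higher and 1 lower (18.8% and 6.25%, against 8.06% and 8.76% of all genes). Of 15 tested genes of mitochondrial biogenesis and transcription 3 were called lower (20%, against 10.3% of all genes) and 0 higher. They were the single-strand DNA-binding protein Ssbp1 (-0.74, adjusted p = 0.0185), the helicase gene Peo1 (-1.40, adjusted p = 0.0192) and the coactivator Pprc1 (-0.61, adjusted p = 0.0447). The call of Pprc1 was kept by 4 of 16 leave-one-out fits, where adjusted p reached 0.114 without Kaede-green 24h replicate 4. AA467197, the paralog of Ndufa4 outside the rule, had -0.46 (SE 0.179, adjusted p = 0.0684). With library totals only, the genes named here as lower were higher in Kaede-red cells (0.79 to 1.58). The calls of Cox17, Usmg5 and Atpif1 were lost with the offsets for transcript length and GC content. With the Rn45s share as a covariate the calls of Pet100, Cox17, Uqcc2, Nubpl, Slc25a5, Usmg5, Atpif1, Ucp2, Pdha1, Ssbp1, Peo1 and Pprc1 were lost. Subunits encoded by the mitochondrial genome were not analysed here.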

How the data were processed

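Bulk RNA from sorted cells was made into libraries with a stranded total RNA kit for low input and sequenced in pairs. Per the labels and the study's methods, the authors trimmed reads with Trim Galore, checked them with FastQC, aligned them to mm10 with HISAT2 and assigned them to genes with featureCounts, and the deposited values are raw counts per gene. The strand setting and the annotation of the counting are not given in the sources used here.

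Counts of 16 libraries (4 a group) were tested with edgeR 4.0.16 in R 4.3.3 (filterByExpr, TMM factors, quasi-likelihood test, 1 mean per group, Benjamini-Hochberg adjustment over 9642 genes, threshold 0.05). Standard errors are the log2 fold change over the root of F, and their median over both times was 0.266. The contrasts were red against green over both times and at each time, 72h against 24h in each colour, and their interaction. The same steps were run on counts simulated from the fitted library sizes, with some genes changed up or down at random. Such counts cannot test the choice between TMM factors and library totals. Total counts per library were 3216858 to 15423085. Coordinates, transcript length and GC content (99.4% of tested genes) came from an mm10 annotation. Near-identical copies were BLAST 2.17.0 matches of at least 95% identity over 50% of a transcript or 300 bases.

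The members and lists were chosen with earlier results of these data known. Named were fixed members by role (core subunits, paralog pairs), the 3 members of each complex with the smallest p-values over both times, members called in the rarer direction, the 5 called members with the smallest p-values in the time and interaction comparisons, and up to 4 called genes of each companion list. Ndufa6, Uqcrq, Ndufb9 in the interaction, the single genes of the peripheral stalk and small membrane subunits outside that rule, Ndufa9, Ndufaf2, Sdhaf2, Cox15, Sco2 and AA467197 were named after their values were seen. The values of 1 member are not reported here, though it stays in the fits and counts. Alternatives were DESeq2 1.42.0, RLE factors, library totals only, Rn45s left out, no filter or at least 10 counts in every library, only the groups compared, a replicate block, the Rn45s share as a covariate, offsets for length and GC content (loess span 0.5), and each library left out.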

Additional observations from a re-analysis of the deposited data

Results flagged for a closer look

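Of 212 sets of 4 libraries examined (the members named above and the summed complexes, by group), 12 held 1 library whose gap to the nearest other exceeded 0.829 of the range, about the 1 in 20 that chance gives. In Kaede-green 24h, Ndufaf6 had 1.12 CPM in replicate 1 and 0 in the others, and Ndufa10 had 5.32 CPM in replicate 4 against 1.64 to 2.04. In Kaede-red 24h, Uqcrh had 28.5 CPM in replicate 3 (21.1 to 21.9 in the others) and summed complex I had 330 CPM in the same library (284 to 289). Uqcrc2 had 12.6 CPM in replicate 2 (8.87 to 9.44). Replicate 4 was low in Atp5c1 with 27.9 CPM (34.3 to 35.4) and in Atp5sl with 0.517 CPM (0.703 to 0.73). In Kaede-green 72h, Ndufs3 had 6.21 CPM in replicate 1 (4.27 to 4.42) and Atp5g3 12.2 CPM in replicate 3 (8.77 to 9.16). In Kaede-red 72h, Cyc1 had 7.97 CPM in replicate 2 (4.63 to 5.14), and replicate 3 had 13.6 CPM of Uqcrb (8.5 to 8.69) and 5.29 CPM of Ndufa10 (5.7 to 5.73).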

How the results depend on the processing

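With library totals only, the median gene was 2.20 (log2) higher in Kaede-red cells over both times, and 80, 82 and 59 members were called higher in Kaede-red cells in the pooled, 24h and 72h comparisons, with 0 lower and medians of 1.67, 1.93 and 1.29, where 96.6%, 93.8% and 83.9% of all genes were called higher. The median of 72h against 24h was then 0.56 in Kaede-green cells, while Kaede-red cells had -0.058 (0 called lower), and that of the interaction -0.61. Over both times the values of the genes that turned were Ndufv2 1.76, Ndufs1 1.96, Ndufs3 2.04, Ndufs8 1.76, Sdhd 1.84, Uqcrc1 2.17, Uqcrc2 2.01, Uqcrfs1 1.59, Cycs 1.39, Cox4i1 0.89, Cox5a 1.97, Cox5b 1.40, Atp5c1 1.61, Atp5d 1.87, Atp5e 0.71, Ndufa4 0.68, Cox6a1 1.92, Cox7a2 0.88, Cox7a2l 1.12, Cox8a 1.74, Atp5g2 1.81, Atp5g3 1.62, Ndufa1 0.69, Ndufb3 0.84, Ndufa7 0.94, Uqcrh 0.29, Uqcrb 1.55, Cox7b 0.58, Cox6c 0.93, Atp5k 0.63, Atp5h 1.21, Ndufaf7 1.29, Ndufb9 1.33, Ndufb4 1.00, Pet100 0.93, Cox17 1.32, Uqcc2 1.07, Slc25a5 1.495, Usmg5 1.03, Atpif1 1.58, Ssbp1 1.43, Peo1 0.79 and Pprc1 1.52. At 24h they were Uqcrh 0.73, Uqcrfs1 1.44 and Ndufa9 1.38, and at 72h Uqcrfs1 1.74 and Ndufaf2 0.33. The cause was not tested.

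Over both times, 1 member was called higher with RLE factors (9% of all genes), with Rn45s left out (10.3%), with the replicate block (9.4%) and with the length and GC offsets (5.44%). The number was 0 with at least 10 counts in every library (20.8%) or the Rn45s share as a covariate (0.529%). That covariate left 3, 1, 2 and 1 called lower in the pooled, 24h and 72h comparisons and over time in Kaede-red cells, where 1.09%, 1.22%, 0.778% and 0.342% of all genes were. With it 0 members were higher and the median at 72h was -0.48. With at least 10 counts 0 were higher at 72h (20.5% of all genes). The offsets gave 21 lower at 24h, 19 at 72h (median -0.35), 2 over time in Kaede-red cells (median -0.11), and in the interaction 1 higher and a median of 0.064. Of all genes 8.98%, 8.1% and 1.14% were then called lower, and 1.38% higher in the interaction. At 24h DESeq2 called 20 lower (5.65% of all genes) and Rn45s left out 17 of 81 tested (5.69%). Over time in Kaede-red cells DESeq2 and at least 10 counts (59 members tested) called 27 each, and only the groups compared 29. The shares of all genes called lower were 6.86%, 15.9% and 7.08%, against 3.76% in the main fit. In the interaction DESeq2 and at least 10 counts called 3 lower (1.36% and 2.5% of all genes), and no filter and the block 1 (0.523% and 0.29%). Leaving out 1 library gave 32 to 42 members lower and 1 to 2 higher over both times, 8 to 19 lower and 0 to 1 higher at 24h, 4 to 26 lower over time in Kaede-red cells and 0 to 2 lower in the interaction. In these fits 8.29% to 10.8% of all genes were lower and 7.58% to 10.1% higher over both times. At 24h the shares were 3.02% to 5.17% and 1.93% to 3.12%. The shares called lower were 1.1% to 5.45% over time in Kaede-red cells and 0.0099% to 0.608% in the interaction.

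Same-numbered libraries of different groups correlated at -0.04 to 0.15 (24 pairs, 3 over 0.1), and other pairs at -0.14 to 0.15 (72 pairs, 1 over 0.1). Of 16 libraries, 8 correlated best with their own number. Kaede-green and Kaede-red libraries of the same number correlated at 0.080, 0.092, 0.049 and 0.153 at 24h, and at -0.003, 0.029, -0.018 and -0.0001 at 72h. These values do not settle whether the numbers mark pairs, and the main fit assumed no pairing. With the replicate block 37, 11, 36 and 20 members were lower in the pooled, 24h and 72h comparisons and over time in Kaede-red cells. The shares of all genes called lower were 9.81%, 4.32%, 8.45% and 3.9% in the same order. Green libraries held few counts outside Rn45s, which limits low members most.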
